A study of Danio rerio with 4 samples.

Results

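Aminoacyl-tRNA synthetases are the enzymes that join each amino acid to its matching transfer RNA, the step that supplies charged tRNA to the ribosome. Cytosol and mitochondria use largely separate enzymes, and all of them are encoded in the nucleus. In vertebrate cytosol some of these enzymes sit together in a multisynthetase complex held by scaffold proteins. In mammals the transcription factor ATF4 is known to raise many cytosolic synthetase genes when amino acids run short.

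The genes described here were chosen by name from a list of 36 synthetase symbols, 21 cytosolic and 15 mitochondrial (names ending in 2). They were chosen with earlier results of these data known. Of these, 33 were found in the symbol table and 26 had a row among the 32379 genes of the count files, 16 cytosolic and 10 mitochondrial. A filter on low counts kept all 16 cytosolic rows and 9 of the mitochondrial rows. YARS2, the mitochondrial tyrosine enzyme, had 0 counts in every library, which allows up to 0.13 and 0.127 CPM (read counts scaled to a common library size) in srsf5a-morpholino replicates 1 and 2 and up to 0.2 and 0.0818 CPM in control replicates 1 and 2. The other 10 symbols (farsa, hars, kars, larsb, wars, aars2, ears2, nars2, sars2 and tars2) matched no row by name and were not analysed here. Whether the row named LARS1, taken here as the listed lars, is instead larsb could not be settled from the symbol table.

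RNA came from whole zebrafish embryos of strain AB at 48 hours post fertilization, raised at the same temperature after injection of 3 ng of morpholino, an antisense oligomer, into the egg at the 1-cell stage. One group received sMOsrsf5a, directed against the splicing factor gene srsf5a, and the other a control morpholino, with 2 libraries in each group. Every embryo therefore carried a morpholino, uninjected embryos were not part of the comparison, and 80 embryos were pooled per condition. The labels call the libraries biological replicates but do not say that they came from separate pools, and a p-value here reflects only how far these 4 libraries differ.

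Gene counts totalled 22739821 and 23950082 in the srsf5a-morpholino libraries and 15139525 and 36240893 in the control libraries. The targeted gene, srsf5a, stood at 335 and 368 CPM with the srsf5a morpholino and at 335 and 286 CPM in controls (adjusted p = 0.424, edgeR). A total count need not fall when splicing is blocked, so it does not check the labels. Of 21 markers of 7 tissues 15 had a row, covering all 7 tissues, at 0.212 to 23200 CPM. The liver marker fabp10a was the lowest, at no more than 1.21 CPM in any library. Among these markers the transferrin gene tfa (-1.04) and the globin gene hbae1.1 (-0.88) were lower on the log2 scale with the srsf5a morpholino (adjusted p = 0.0331 and 0.0189, edgeR). Markers that missed the threshold included the lens genes CRYAA (0.89) and CRYBB1 (0.68), above controls in both srsf5a-morpholino libraries (adjusted p = 0.0808 and 0.0725, edgeR). Another lens gene, crygm2d2 (0.24, adjusted p = 0.57, edgeR), and the red cell gene alas2 (-0.22, adjusted p = 0.384, edgeR) overlapped between the groups. The neuron gene ELAVL3 (-0.43, adjusted p = 0.137, edgeR) also missed it and lay below controls in both srsf5a-morpholino libraries. The part of such shifts in the values below was not tested, and in whole embryos fewer cells of a type and less RNA per cell cannot be told apart.

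Every cytosolic synthetase gene measured was more abundant in both srsf5a-morpholino libraries than in either control library, by small amounts. The 16 log2 fold changes (srsf5a over control morpholino) ran from 0.12 to 0.66 with a median of 0.27, or 1.21-fold, and standard errors of 0.09 to 0.13. Over all 19917 tested genes the median was 0, and 26.1% lay higher without overlap between the groups. Among the 3614 tested genes with a mean of at least 50 CPM, the range that holds all 16, that share was 27.9%. The 16 genes were read from the same 4 libraries and are not independent of each other. They were also chosen with earlier results of these data known, so the count is a description and not a test. The count of 16 was the same after scaling by RLE size factors and by library totals.

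A single cytosolic gene passed the test over all genes (Benjamini-Hochberg adjusted p under 0.05 in edgeR's quasi-likelihood test). That is 1 of 16 higher and 0 lower, where 1.98% of all tested genes were called, 1.22% higher and 0.768% lower. At an unadjusted p under 0.05 the cytosolic count was 10, against a share of 10.5% of all tested genes called higher in this way and 13% of those with at least 50 CPM. DESeq2 on the same counts called 4 (2.48% of all tested genes higher), and the authors' deposited table lists 5 below an adjusted p of 0.05 (2.59% of all tested genes higher).

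**Figure D1:**
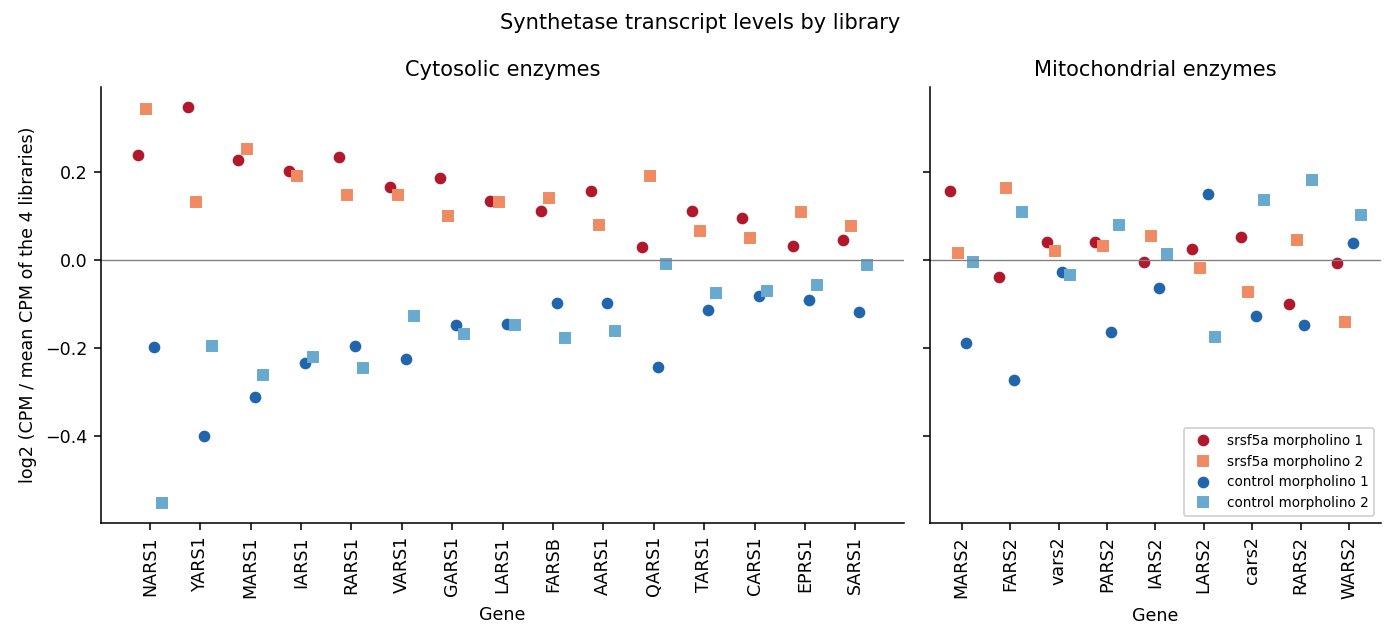
Level in each library of the tested synthetase genes, 15 cytosolic and 9 mitochondrial, as log2 of its CPM over its mean CPM in the 4 libraries; red and orange points are srsf5a-morpholino libraries, blue points control libraries, and genes run from the highest to the lowest fold change. In all 15 cytosolic genes shown both srsf5a-morpholino points lie above both control points, whereas this holds for 2 of 9 mitochondrial genes. It holds for 26.1% of all tested genes, and for 25.7% of those with a mean under 50 CPM.

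MARS1 (ENSDARG00000034396), which charges both initiator and elongator methionine tRNA, was the gene that passed. It had 81.6 and 83 CPM in srsf5a-morpholino libraries, against 56.2 and 58.2 CPM in controls. The 2 libraries of each group were nearly equal and the groups lay well apart. MARS1 rose 1.44-fold, a log2 fold change of 0.52 ± 0.09 (SE, adjusted p = 0.0404, edgeR). The call ended without control replicate 1 (0.49, adjusted p = 0.179, edgeR) and without control replicate 2 (0.55, adjusted p = 0.215, edgeR), and over the 9 alternatives adjusted p ran from 0.00335 to 0.215.

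NARS1 (ENSDARG00000061100), the asparagine enzyme, had the highest fold change of the 16. Its levels were 238 and 255 CPM with the srsf5a morpholino and 176 and 138 CPM in controls, so the control libraries differed from each other more than for MARS1. The log2 fold change was 0.66 ± 0.13 (SE, 95% interval 0.35 to 0.96) and missed the threshold (adjusted p = 0.0547, edgeR). It was 0.84 and called without control replicate 1 (adjusted p = 0.0471, edgeR), but 0.49 without control replicate 2, where adjusted p was the highest of its alternatives, 0.261 (range 0.000316 to 0.261, edgeR and DESeq2).

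YARS1 (ENSDARG00000035913), which charges tyrosine, stood at 107 and 92.5 CPM in srsf5a-morpholino libraries and at 64.1 and 73.8 CPM in controls. The lowest srsf5a-morpholino value was still above the highest control value, and the log2 fold change was 0.53 ± 0.12 (SE, adjusted p = 0.0715, edgeR). IARS1 (ENSDARG00000007955), the isoleucine enzyme, had 181 and 179 CPM with the srsf5a morpholino and 134 and 135 CPM in controls. Replicates of IARS1 were nearly equal, and its log2 fold change of 0.42 ± 0.09 (SE) had an adjusted p of 0.0601 in edgeR. RARS1 (ENSDARG00000054530), the arginine enzyme, had 68.9 and 64.9 CPM with the srsf5a morpholino and 51.2 and 49.5 CPM in controls (0.41 ± 0.09 SE, adjusted p = 0.0761, edgeR). In the authors' deposited table MARS1 (0.48), NARS1 (0.59), IARS1 (0.39), YARS1 (0.48) and RARS1 (0.37) are the 5 members listed below an adjusted p of 0.05.

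The next 5 genes had 95% intervals above 0 but adjusted p between 0.106 and 0.194 in edgeR. The valine gene VARS1 (log2 fold change 0.33) and the leucine gene named LARS1 (0.28) encode enzymes for branched-chain amino acids. GARS1 (0.30) charges glycine, and in humans the same gene also supplies the mitochondrial form. FARSB (0.26) encodes a subunit of the phenylalanine enzyme, and AARS1 (0.25) the alanine enzyme. GARS1 had 285 and 269 CPM with the srsf5a morpholino and 226 and 223 CPM in controls. LARS1 had 97.3 and 97.2 CPM in srsf5a-morpholino libraries against 80.2 and 80.1 CPM in controls. Its replicates were closer to each other than those of GARS1. Another leucine row, lars1a, is not on the list of 36 and stood at 26.7 and 24.9 CPM with the srsf5a morpholino and 21.2 and 22.5 CPM in controls (0.23, adjusted p = 0.291, edgeR).

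In the remaining 6 genes the 95% interval held 0. Among these were the genes for glutamine (QARS1, log2 fold change 0.23), threonine (TARS1, 0.18), cysteine (CARS1, 0.15), glutamate and proline together (EPRS1, 0.14) and serine (SARS1, 0.12). EPRS1 had the highest CPM of the members, with 329 and 347 CPM with the srsf5a morpholino and 302 and 309 CPM in controls. Gene length also sets such a value, so genes are not ranked by level here. SARS1 stood at 192 and 196 CPM in srsf5a-morpholino libraries and 172 and 185 CPM in controls. For SARS1 the gap between the groups was smaller than the gap between the control libraries.

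**Figure D2:**
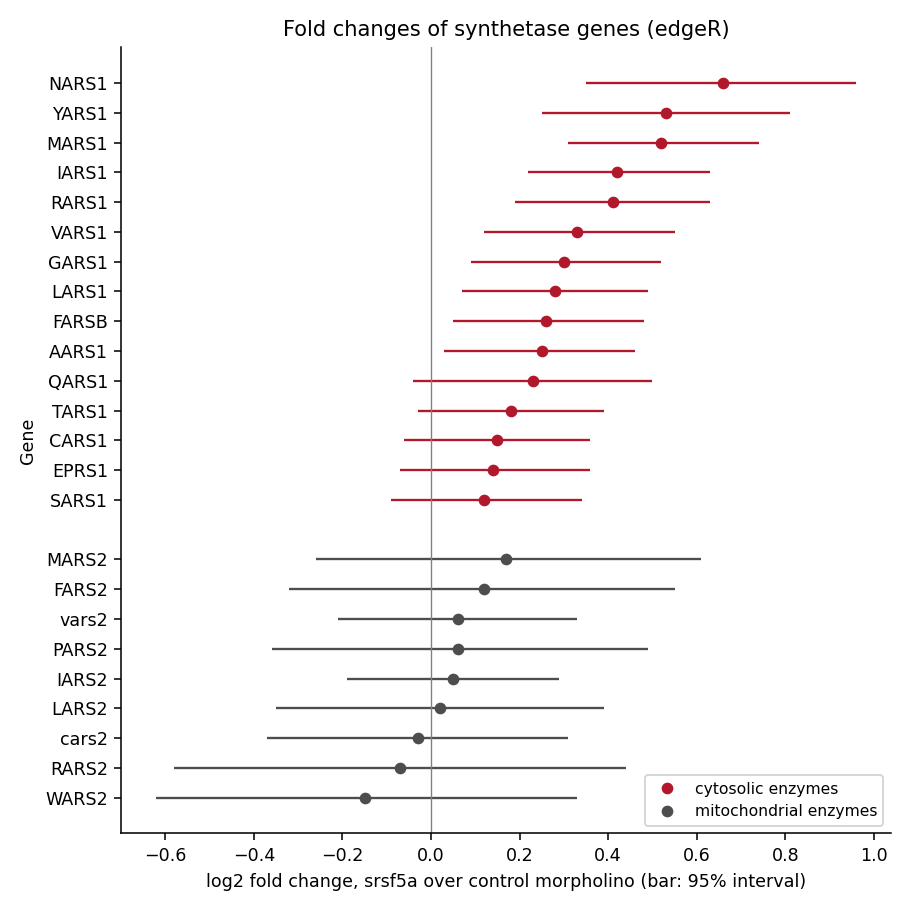
Fitted log2 fold change of the same 15 cytosolic and 9 mitochondrial genes, srsf5a over control morpholino, with its 95% interval from the edgeR fit; cytosolic genes are above and mitochondrial genes below. The intervals of 10 cytosolic genes lie above 0, while those of all 9 mitochondrial genes hold 0.

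The genes that stood highest were neither all of the same structural class nor all in the multisynthetase complex. Synthetases fall into class I and class II by the fold of their catalytic domain. NARS1, the highest, is class II, and the next highest, YARS1, MARS1, IARS1 and RARS1, are class I. The 8 cytosolic class I genes had a median log2 fold change of 0.37 (range 0.15 to 0.53) and the 7 class II genes one of 0.25 (range 0.12 to 0.66), with EPRS1 belonging to both. Genes whose products sit in the multisynthetase complex had a median of 0.28 over 7 genes, and the 9 outside it one of 0.26. These medians are descriptions, and their differences were not tested.

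Mitochondrial synthetase transcripts differed little between the groups. Of 9 tested, 0 passed the test in either direction in edgeR, 0 had an unadjusted p under 0.05 and 0 were called by DESeq2. Over all tested genes edgeR called 1.98% in either direction and DESeq2 called 2.48% higher. An unadjusted p under 0.05 was found for 10.5%, counting higher genes only. Counts of 0 among 9 genes therefore say little of these genes. Fold changes lay above 0 in 6 and below 0 in 3, where 50.1% of all tested genes lay above 0. The 9 fold changes ran from -0.15 to 0.17 on the log2 scale with a median of 0.05. That median was -0.04 without control replicate 1 and 0.12 without control replicate 2. Both srsf5a-morpholino libraries lay above both controls in 2 genes, MARS2 and vars2, against a share of 25.7% among tested genes with a mean under 50 CPM, and below them in WARS2 (26.3% of all tested genes lower without overlap). By library totals in place of TMM scaling the first of these counts was 1.

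IARS2 (ENSDARG00000044134), for mitochondrial isoleucine, was the most deeply counted of them. It had 33.2 and 34.6 CPM in srsf5a-morpholino libraries and 31.9 and 33.6 CPM in controls, with overlapping groups (log2 fold change 0.05, 95% interval -0.19 to 0.29). The valine gene vars2 stood at 17.9 and 17.7 CPM with the srsf5a morpholino and 17.1 and 17 CPM in controls (0.06, 95% interval -0.21 to 0.33). Replicates of vars2 agreed closely, and the groups were 1.04-fold apart.

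MARS2, the mitochondrial partner of MARS1, had the highest fold change of the mitochondrial genes, though not the highest level. It stood at 5.86 and 5.31 CPM in srsf5a-morpholino libraries and 4.61 and 5.23 CPM in controls (log2 fold change 0.17 ± 0.18 SE, adjusted p = 0.653, edgeR). The tryptophan gene WARS2 had the lowest fold change (-0.15 ± 0.20 SE, adjusted p = 0.737, edgeR). Its levels were 3.82 and 3.48 CPM with the srsf5a morpholino and 3.94 and 4.12 CPM in controls. Counts behind these values were 135 and 125 for MARS2 in srsf5a-morpholino libraries and 69 and 192 in controls, and the standard errors of both genes were wider than for any cytosolic gene.

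FARS2, the mitochondrial phenylalanine gene, showed how the control libraries differed. Its levels were 7.46 and 8.58 CPM with the srsf5a morpholino and 6.35 and 8.26 CPM in controls (log2 fold change 0.12, adjusted p = 0.772, edgeR). Without control replicate 1 its fold change was -0.05. The other mitochondrial genes, for proline (PARS2, 0.06), leucine (LARS2, 0.02), cysteine (cars2, -0.03) and arginine (RARS2, -0.07), had adjusted p between 0.883 and 0.961 in edgeR.

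The depth of the classes was unequal, which limits what can be said of the difference between them. Cytosolic genes had 767 to 11350 counts a library and mitochondrial genes 54 to 1232. All 9 mitochondrial intervals held 0, but all 9 also held 0.27, the cytosolic median. A mitochondrial change of the cytosolic size was therefore not separable from none in any single gene at this depth.

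Taken as sums, cytosolic synthetase transcripts made up 2550 and 2540 CPM in srsf5a-morpholino libraries and 2090 and 2080 CPM in controls. Mitochondrial synthetase transcripts made up 102 and 103 CPM in srsf5a-morpholino libraries and 96.5 and 103 CPM in controls. The cytosolic sums were almost equal within a group and apart between the groups, and the mitochondrial sums overlapped. The ratio of the cytosolic to the mitochondrial sum was 24.9 and 24.8 in srsf5a-morpholino libraries, against 21.7 and 20.2 in controls.

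For 7 amino acids both enzymes were tested, and each pair was compared within a library. The log2 ratio of cytosolic to mitochondrial CPM lay higher in both srsf5a-morpholino libraries than in both controls for methionine, isoleucine, arginine, valine and leucine, 5 of the 7 pairs. No share over other gene pairs was computed. All 16 cytosolic genes already lay higher without overlap, so this count is not separate support for a difference between the classes. For isoleucine (IARS1 over IARS2) the log2 ratio was 2.45 and 2.38 with the srsf5a morpholino and 2.07 and 2.01 in controls. For methionine (MARS1 over MARS2) it was 3.8 and 3.97 with the srsf5a morpholino and 3.61 and 3.48 in controls. These pairs kept apart in every library, with methionine and isoleucine differing by 0.35 and 0.37 in their fitted log2 fold changes.

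The phenylalanine and cysteine pairs overlapped. FARSB over FARS2 had a log2 ratio of 3.3 and 3.13 in srsf5a-morpholino libraries and 3.33 and 2.87 in controls. CARS1 over cars2 had one of 2.44 and 2.52 with the srsf5a morpholino and 2.45 and 2.2 in controls. Over the 7 pairs the cytosolic fold change exceeded the mitochondrial by 0.15 to 0.48 on the log2 scale. With 2 libraries a group an exact two-sided permutation test cannot go below p = 0.33, so no pair was tested. Without control replicate 2 the cytosolic fold change was higher in 6 of 7 pairs, and without each other library in 7.

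**Figure D3:**
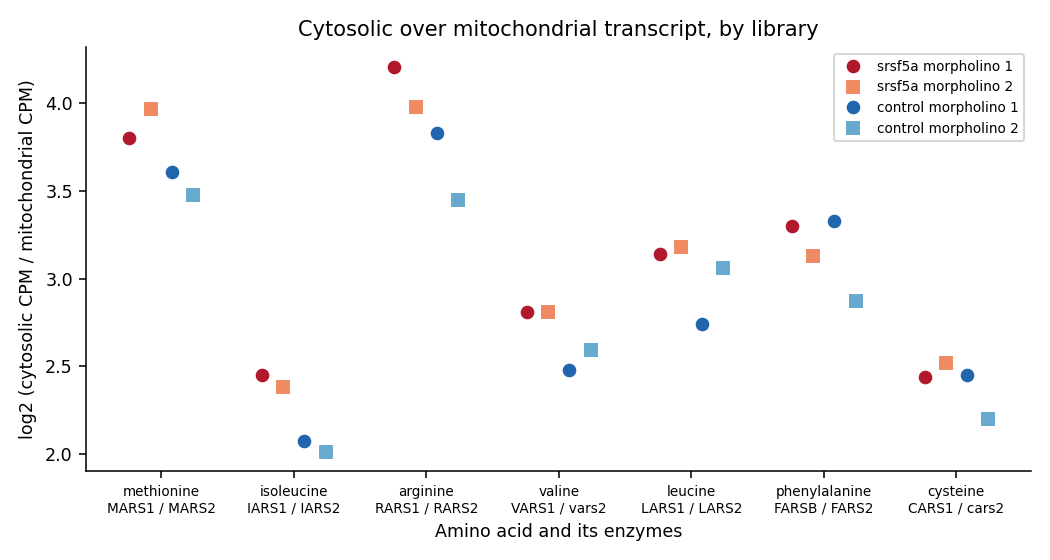
Log2 ratio of the cytosolic to the mitochondrial enzyme's CPM in each library, for the 7 amino acids with both enzymes tested; red and orange points are srsf5a-morpholino libraries and blue points controls. The groups do not overlap for methionine, isoleucine, arginine, valine and leucine and overlap for phenylalanine and cysteine.

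Leaving out a library moved the number of cytosolic calls but not the direction of any cytosolic gene. The number of calls over all tested genes moved too, so a change in the cytosolic number is not a result about these genes. Each such fit has 1 library in 1 of the groups. All 16 cytosolic fold changes stayed above 0 in each of the 9 alternatives, that is in 144 of 144 gene values. All 16 already lay higher without overlap, so leaving out 1 library could hardly turn a sign. The other alternatives reuse the same libraries. This count is therefore not separate support for the direction or for a difference between the classes. Of 81 mitochondrial gene values under the same alternatives 7 had the opposite sign to the reported one, and 0 were called.

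**Figure D4:**
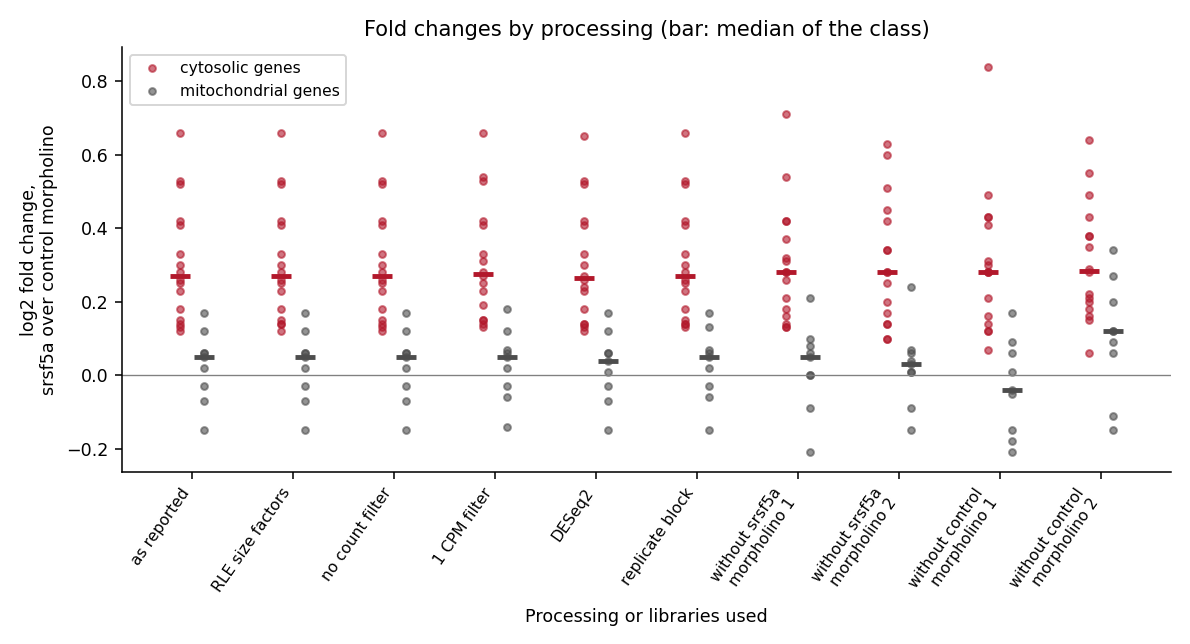
Log2 fold changes of the 16 cytosolic and 9 mitochondrial genes under each processing alternative and without each library in turn, with the class median as a bar. The cytosolic median stays between 0.27 and 0.28, and the mitochondrial median between -0.04 and 0.12.

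Other genes of the pathway were read from 6 lists, written with earlier results of these data known. Their counts and medians are therefore descriptions and not separate support. Proteins that hold or assist the synthetases showed no call in either direction among 7 tested genes in edgeR (1.98% of all tested genes called). There were 0 at an unadjusted p under 0.05 and 0 by DESeq2, and the median log2 fold change was 0.10. Of the scaffold genes of the multisynthetase complex, the AIMP1 row with more counts (0.20) and AIMP2 (0.18) were above 0 and EEF1E1 (-0.15) below. The AIMP1 row with fewer counts overlapped between the groups (0.10, adjusted p = 0.837, edgeR). It had 41 and 50 CPM with the srsf5a morpholino and 53.1 and 32.4 CPM in controls. AIMP2 overlapped between the groups, with 76.1 and 95 CPM with the srsf5a morpholino and 82.9 and 68.7 CPM in controls.

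A further list of charging genes held a row named HARS2 in the symbol table. It is not among the 36 symbols, and the RefSeq gene table of this species lists hars, the histidine enzyme gene, but no hars2. HARS2 (ENSDARG00000003693) had 153 and 144 CPM in srsf5a-morpholino libraries and 125 and 115 CPM in controls, with no overlap (log2 fold change 0.31 ± 0.10 SE, adjusted p = 0.133, edgeR). GATB, a subunit of the enzyme that makes mitochondrial glutamine tRNA by amidation, had a log2 fold change of 0.24. GATC, another subunit of that enzyme, had 3.69 and 3.61 CPM with the srsf5a morpholino and 5.01 and 4.74 CPM in controls. Its log2 fold change was -0.41 (adjusted p = 0.284, edgeR). In this list 5 genes lay above 0 and 1 below (50.1% of all tested genes above 0). None of the 6 genes of this list was called in edgeR (1.98% of all tested genes called) or DESeq2, with 1 at an unadjusted p under 0.05.

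Genes of tRNA maturation and modification lay mostly above 0, at 32 of 37 tested (50.1% of all tested genes) with a median log2 fold change of 0.18. Of the 37, 21 were higher without overlap, against 26.1% of all tested genes. None passed the test in edgeR, and DESeq2 called 1, which was higher (2.48% of all tested genes higher). At an unadjusted p under 0.05 in either direction the count was 7, not all of them higher. The share over all tested genes (10.5%) was computed for higher genes only, so it is not a like comparison. The highest CPM values were those of SSB, which encodes the La protein that binds new RNA polymerase III transcripts, and of NSUN2, a tRNA methyltransferase. SSB had 110 and 117 CPM with the srsf5a morpholino and 80.2 and 90.5 CPM in controls (0.41, adjusted p = 0.0872, edgeR), and NSUN2 had a log2 fold change of 0.37.

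Translation factors of the cytosol had 2 edgeR calls, both higher, among 41 tested genes (1.22% of all tested genes called higher), with a median log2 fold change of 0.14. An unadjusted p under 0.05 in either direction was found for 12, not all of them higher. The share over all tested genes (10.5%) was computed for higher genes only, so it is not a like comparison. DESeq2 called 4, of which 3 were higher and 1 lower (2.48% of all tested genes higher). ETF1, the release factor that reads stop codons, rose 1.88-fold, with 315 and 336 CPM in srsf5a-morpholino libraries and 158 and 189 CPM in controls (adjusted p = 0.0206, edgeR). An EIF4EBP3 row (ENSDARG00000041607), for a protein that binds the cap-binding factor eIF4E, rose 1.97-fold, with 40.2 and 49.3 CPM with the srsf5a morpholino and 22.6 and 22.8 CPM in controls (adjusted p = 0.0219, edgeR). The row named eif4ebp3 (ENSDARG00000054916) overlapped between the groups (log2 fold change 0.11, adjusted p = 0.828, edgeR). It had 4.21 and 5.27 CPM with the srsf5a morpholino and 4.88 and 4.01 CPM in controls. Without control replicate 2 both calls ended (ETF1 at 1.04 and EIF4EBP3 at 0.99 on the log2 scale), and that of ETF1 also without control replicate 1 (0.78). Mitochondrial translation factors had no call among 16 tested genes in edgeR or DESeq2, 0 at an unadjusted p under 0.05 and a median of 0.04. The genes with the highest CPM, LRPPRC and the elongation factor gene GFM1, had log2 fold changes of -0.03 and -0.01.

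The amino acid stress list holds genes that follow ATF4 in mammals, together with the kinases and feedback proteins of that response. Of its 41 symbols 28 matched by name, with 29 rows. Of 29 tested genes edgeR called 3 higher and 0 lower, where 1.22% of all tested genes were called higher, and the median log2 fold change was 0.26. In all 23 lay above 0 and 6 below (50.1% of all tested genes above 0), and 17 were higher without overlap (26.1% of all tested genes). Lower without overlap (26.3% of all tested genes) were ppp1r15a (-0.26), HERPUD1 (-0.22) and EIF2AK3 (-0.22). At an unadjusted p under 0.05 in either direction the count was 13, which includes the lower ppp1r15a. The share over all tested genes (10.5%) was computed for higher genes only, so it is not a like comparison. DESeq2 called 7, all higher (2.48% of all tested genes higher). ASNS, which makes asparagine, the amino acid that NARS1 charges, rose to 113 and 104 CPM with the srsf5a morpholino, against 61.7 and 60.5 CPM in controls (adjusted p = 0.0189, edgeR). atf4b rose to 466 and 440 CPM, against 307 and 298 CPM in controls (adjusted p = 0.0356, edgeR), and CEBPB, a transcription factor gene, to 44.8 and 37.2 CPM, against 25.6 and 20.8 CPM in controls (adjusted p = 0.0425, edgeR). Without control replicate 2 the calls of ASNS (0.81), atf4b (0.56) and CEBPB (0.68) ended, and that of atf4b also without control replicate 1 (0.60). TRIB3, a pseudokinase gene of the same response, had 60.1 and 59.6 CPM with the srsf5a morpholino and 60 and 59.6 CPM in controls. It was picked for this equality once its values were known.

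**Figure D5:**
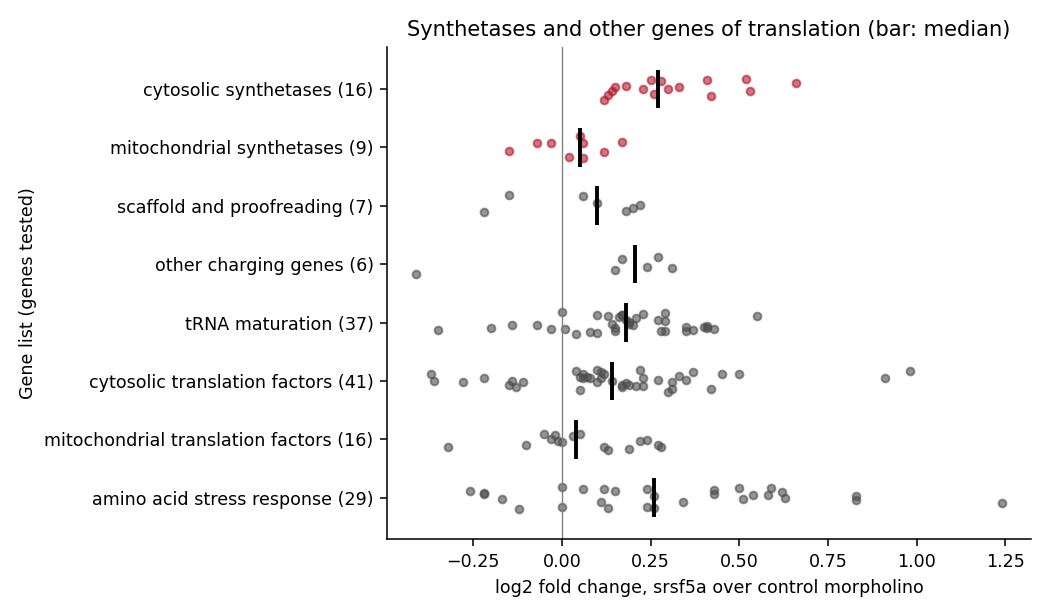
Log2 fold change of each tested gene in the synthetase classes (red) and in the 6 lists of other genes (grey), srsf5a over control morpholino, with the median of each list as a bar and the number tested in brackets. The cytosolic synthetases (median 0.27) and the amino acid stress genes (0.26) have the highest medians among these lists, and the mitochondrial synthetases (0.05) and mitochondrial translation factors (0.04) the lowest. The lists were written with earlier results of these data known.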

How the data were processed

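The Zv9 build, HTSeq, TopHat, Picard and DESeq2 are named, without versions, in the submitters' processing notes. Neither the annotation release nor the strand setting of counting is stated in them. The authors deposited read counts per gene for each library, and a comparison table with log2 fold changes and standard errors, p-values, a score (Wald statistic) and a signal column of mean normalized counts. Only its log2 values and adjusted p were used. Reads with several alignments (29% to 34.2% of those listed) are in no gene, so values of genes with close copies are uncertain. Summary totals stayed out of library sizes.

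The test was run in R 4.3.3 with edgeR 4.0.16: filterByExpr (minimum count 10, total 15), TMM factors (0.984 to 1.01) and the quasi-likelihood test with morpholino group as the only term. P-values were adjusted over all 19917 tested genes. Intervals come from the same fit, and 0-count limits (3 counts) cover counting error only. Alternatives used RLE factors, other filters, DESeq2 1.42.0, a replicate block and each library left out. Replicate pairs differed by more than counting error (chi-square over degrees of freedom 13.5 with the srsf5a morpholino and 8.72 in controls). All 4 libraries were kept. A check on simulated counts was made for this comparison. Of 100 genes changed by 1 and 100 changed by 2 on the log2 scale, 100% were recovered at each size. The changed genes were drawn only from those with a mean above 20 CPM. Of the tested mitochondrial genes only IARS2 lies above that mean, so the recovery does not cover the others. In the same run 20 unchanged genes were also called, among 19658 tested, so a call here can be false. Set against the calls made in that run, these false calls were a larger share than the adjusted p threshold of 0.05 allows. Both sizes are above every synthetase fold change, so the recovery says nothing of smaller ones.

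Symbols came from a table naming 20603 of the identifiers, matched ignoring case, and for the lists also without a final paralog letter. Members and lists were chosen with earlier results of these data known. Every member is accounted for, and values in every library are given for called members, the 4 lowest adjusted p, the 2 most abundant and the highest and lowest fold change per class, both enzymes where 1 was called, and up to 4 called or the 2 most abundant genes per list. Values of RARS1, LARS1, lars1a, TRIB3, GATC and the AIMP1 and eif4ebp3 rows with fewer counts fall outside that rule and were added after they were seen. So do the fold changes of EEF1E1, ppp1r15a, HERPUD1 and EIF2AK3. Some genes that the counts and medians include are not reported here by name.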

Additional observations from a re-analysis of the deposited data

How the results depend on the processing

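Over all genes the number called was 395. It was 956 with DESeq2, 1582 with a replicate block and 33 to 1410 when 1 library was left out, the lowest without control replicate 2. The 1 cytosolic call became 2 with a filter of 1 CPM in 2 libraries, 4 with DESeq2, 5 with the replicate block and 0 to 5 when 1 library was left out. The cytosolic median of 0.27 was 0.28 without any single library. The mitochondrial median of 0.05 ran from -0.04 (without control replicate 1) to 0.12 (without control replicate 2), and the median difference within amino acid pairs, 0.27, from 0.27 to 0.35. These pair alternatives were added after seeing the data. Calls in the 6 lists numbered 5 as reported, 12 with DESeq2, 14 with the replicate block and 0 to 14 when 1 library was left out.

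Signs turned in 7 gene values, all in mitochondrial genes that were not called, when 1 library was left out. cars2 was at 0.03 without srsf5a-morpholino replicate 2 and 0.12 without control replicate 2 (range -0.15 to 0.12). RARS2 was at 0.00 without srsf5a-morpholino replicate 1 and 0.12 without control replicate 2 (range -0.21 to 0.12). LARS2 was at -0.15 without control replicate 2 (range -0.15 to 0.17). Without control replicate 1 FARS2 was at -0.05 (range -0.05 to 0.34) and PARS2 at -0.04 (range -0.04 to 0.20). The cause of these changes was not tested. Same-numbered libraries deviated together (correlation 0.37 across genes), but nothing in the labels says that a number marks a shared batch, and 2 pairs cannot show it. With the block IARS1 (adjusted p = 0.0285), NARS1 (0.0134), YARS1 (0.0269) and RARS1 (0.0337) passed in edgeR beside MARS1. Depth limits the mitochondrial genes, with as few as 54 counts in a library.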
